A study of Homo sapiens with 33 samples.

Results

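The genes described here encode 7 enzymes of heme synthesis (ALAS2, ALAD, UROS, UROD, CPOX, PPOX and FECH) and 2 proteins that bring iron to that pathway, the transferrin receptor TFRC and the mitochondrial iron importer SLC25A37. They were selected by gene symbol, and each symbol occurred once among the 58293 entries for which expression was deposited, giving 9 members. Expression was measured by RNA-seq of the input RNA of an RNA immunoprecipitation (RIP-seq) for EZH2, the enzymatic subunit of the chromatin repressor PRC2. The cells were wild type K562, a human leukemia cell line with erythroid features, fixed with formaldehyde for the immunoprecipitation. There was 1 input library, with no antibody, so no value below has a replicate. Genes were compared only through the bounds within this library, and no p-value was computed. Reads on 900 EZH2 RIP-seq fragments were also deposited for cytoplasmic, nuclear, nuclear polyA+ and nuclear polyA− RNA of wild type K562 cells, with 1 library each.

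Heme is built in a chain of enzymatic steps that starts and ends in mitochondria and passes through the cytosol. ALAS2 joins glycine to succinyl-CoA in the mitochondrial matrix, and ALAD, UROS and UROD take part in assembling and trimming the porphyrin ring in the cytosol. CPOX, PPOX and FECH then oxidize the ring in mitochondria and insert iron into it. Red cell precursors run this chain at a high rate because hemoglobin needs 1 heme for each globin chain, and they take up most of the iron for it as transferrin through TFRC.

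Several transcripts of iron metabolism carry an iron-responsive element, a short hairpin bound by the iron regulatory proteins. In a 5′ UTR the bound hairpin hinders translation, and in the 3′ UTR of TFRC it protects the transcript from decay. A simple form of the element was searched in the canonical GENCODE 44 transcripts of the members. The form was a C, a stem of 5 bases, the loop CAGTGN and 5 bases that pair with the stem, with G to T pairs allowed. It was found in 2 of the 9 members, once in ALAS2 and 4 times in TFRC, and in 262 of 20046 canonical protein-coding transcripts (1.31%). Of the 84 genes on related lists described further on, 4 held it, namely FTH1, FTL, the exporter SLC40A1 and TF. The TF match lay in the 3′ UTR, with its loop at base 16210 of 20166. The form requires all 5 stem bases to pair, so elements with a mismatch are missed, and a match need not be a working element. The ALAS2 and TFRC windows are shown because they separate these members from the other 7 at the sequence level, and the windows of the ferritin subunits FTH1 and FTL are shown for comparison. Capitals mark the loop.

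ALAS2, 5′ UTR: tcgttcgtcctCAGTGCagggcaacagg
TFRC, 3′ UTR, match 1: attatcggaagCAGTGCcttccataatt
TFRC, 3′ UTR, match 2: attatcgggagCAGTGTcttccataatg
TFRC, 3′ UTR, match 3: tgtatcggagaCAGTGAtctccatatgt
TFRC, 3′ UTR, match 4: attatcgggaaCAGTGTttcccataatt
FTH1, 5′ UTR: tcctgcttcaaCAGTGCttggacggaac
FTL, 5′ UTR: tcttgcttcaaCAGTGTttggacggaac

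The ALAS2 window covered bases 10 to 37 of a transcript of 1940 bases. Its first 27 bases lay in the first exon, on the minus strand of GRCh38 at chrX:55030942-55030968, and its last base lay in the second exon. The 4 TFRC windows lay on the minus strand in 1 exon, at chr3:196050979-196051006, chr3:196050575-196050602, chr3:196050510-196050537 and chr3:196050463-196050490. They began at bases 3290, 3694, 3759 and 3806 of a transcript of 5012 bases, of which 2658 were 3′ UTR. The FTH1 window was at chr11:61967574-61967601 on the minus strand and the FTL window at chr19:48965336-48965363 on the plus strand. A match describes the letters of the transcript and is not a measurement of binding.

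The 9 members spanned a wide range of levels, with TFRC and UROD far above the rest. All levels are in FPKM, fragments scaled to transcript length and to the mapped fragments of the library, so that genes of different length can be compared. Each value is followed by the lower and upper confidence bounds deposited with it, and by its rank from the highest FPKM among the 58293 entries. The bounds describe the estimate within this library and not the spread between cultures. In bulk RNA, a low level in all cells and a higher level in a few of them cannot be told apart.

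The first enzyme, ALAS2, the erythroid form of 5-aminolevulinate synthase, was at 5.16 FPKM (3.70 to 6.62, rank 6737). ALAD, which condenses 2 molecules of aminolevulinate to porphobilinogen, was the lowest member at 2.62 FPKM (1.46 to 3.78, rank 9222). UROS, which closes the tetrapyrrole ring, was at 7.68 FPKM (6.05 to 9.31, rank 5346). These early enzymes therefore sat between 2.62 and 7.68 FPKM.

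UROD, which removes carboxyl groups from the ring, was the highest enzyme at 72.3 FPKM (67.5 to 77.2, rank 423). Its bounds were above those of each other enzyme among the members. CPOX, the mitochondrial enzyme that follows UROD, was at 6.52 FPKM (5.05 to 7.99, rank 5901). UROD was thus 9.41 times UROS (7.25 to 12.8 with the bounds at their extremes), and CPOX was at 0.0902 of UROD (0.0655 to 0.118).

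PPOX, which oxidizes protoporphyrinogen, was at 10.6 FPKM (8.04 to 13.1, rank 4081). FECH, the ferrochelatase that inserts iron to give heme, was at 14.6 FPKM (12.4 to 16.8, rank 3055). From CPOX to FECH the 3 last enzymes were in ascending order, but the bounds of PPOX and FECH overlapped. The 4 mitochondrial enzymes (ALAS2, CPOX, PPOX and FECH) lay between 5.16 and 14.6 FPKM, within the 2.62 to 72.3 FPKM spanned by the 3 cytosolic ones.

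TFRC, which takes up iron-loaded transferrin at the cell surface, was the highest member at 171 FPKM (160.0 to 182, rank 133). SLC25A37, known as mitoferrin-1, was at 26.04 FPKM (24.1 to 28.0, rank 1599). The bounds of TFRC were above those of all 7 enzymes, and the bounds of SLC25A37 were above those of each enzyme but UROD.

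In order of level the members ran TFRC, UROD, SLC25A37, FECH, PPOX, UROS, CPOX, ALAS2 and ALAD. Of the 8 steps down this order, the first 3 had bounds that did not overlap. TFRC was 2.36 times UROD (2.07 to 2.69), UROD was 2.78 times SLC25A37 (2.41 to 3.20), and SLC25A37 was 1.78 times FECH (1.43 to 2.25). From FECH to ALAD, neighbours in the order did not differ beyond their bounds.

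Over all 36 pairs, the bounds were apart in 30 and overlapped in 6. The overlapping pairs were FECH with PPOX, PPOX with UROS, UROS with CPOX, UROS with ALAS2, CPOX with ALAS2, and ALAS2 with ALAD. PPOX and CPOX were barely apart, at a ratio of 1.62 (1.01 to 2.60). ALAD and ALAS2 met only at the edge of their bounds, with ALAS2 at 1.97 times ALAD (0.980 to 4.52). The highest member was 65.2 times the lowest (42.3 to 124), and among the enzymes alone UROD was 27.6 times ALAD (17.9 to 52.7). TFRC alone made up 54.0% of the summed FPKM of the members and UROD 22.9%, which left 23.1% for the other 7.

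**Figure D1:**
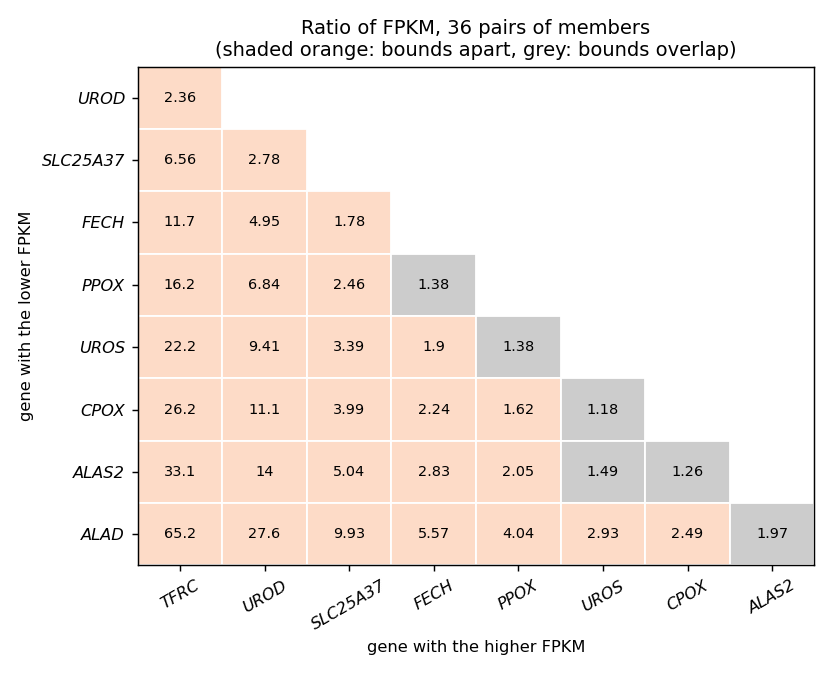
Ratio of the FPKM of the gene on the horizontal axis to that of the gene on the vertical axis for the 36 pairs of members, in order of level. Orange squares mark the 30 pairs whose confidence bounds were apart and grey squares the 6 whose bounds overlapped, all of them among FECH, PPOX, UROS, CPOX, ALAS2 and ALAD.

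Against the whole library the members were expressed genes of very different rank. An FPKM of at least 1 was reached by 9 of 9 members, by 21.8% of all entries and by 50.3% of the 18323 entries whose gene has a RefSeq protein. At least 10 FPKM was reached by 5 of 9 (UROD, PPOX, FECH, TFRC and SLC25A37), against 7.37% of all entries and 20.1% of those with a RefSeq protein. The lower bound was above 0 in 9 of 9, against 26.5% of all entries and 56.0% of those with a RefSeq protein. PPOX was the member nearest above 10 FPKM and its lower bound was below it.

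The median of the members was 10.6 FPKM. It was 0.0680 FPKM over all entries, 1.04 over those with a RefSeq protein and 5.77 over the 12726 entries with an FPKM of at least 1. Among these 12726 entries, 1.04% had a higher FPKM than TFRC, 3.32% than UROD and 12.6% than SLC25A37. By contrast, 72.5% were above ALAD (62.2% at its upper bound), which was thus in the lower part of the expressed genes. For ALAS2 the share was 52.9%, and its bounds held the median of these entries (45.9% above at the upper bound and 62.8% at the lower). FECH, PPOX, UROS and CPOX had between 24.0% and 46.4% of these entries above them.

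**Figure D2:**
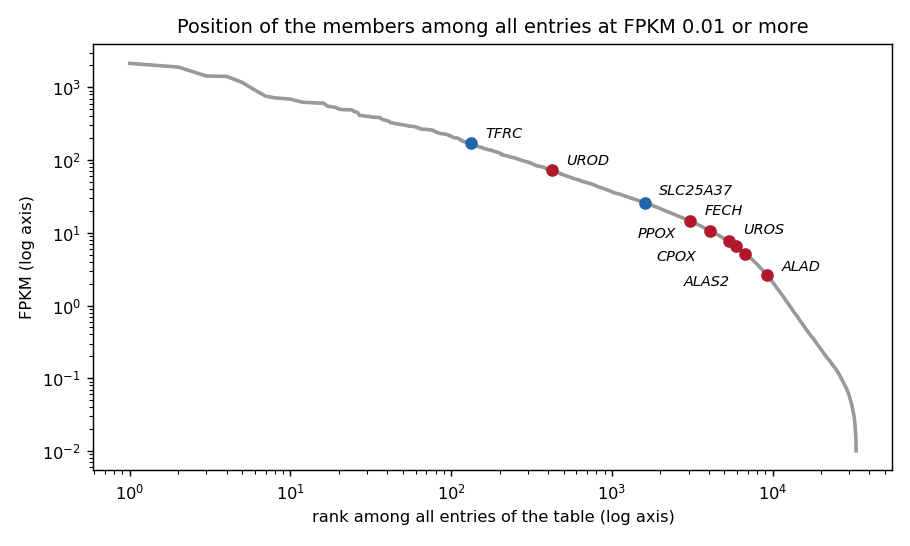
FPKM against rank from the highest value, both on log axes, for all entries with an FPKM of 0.01 or more (grey line). The members are marked, with enzymes in red and iron genes in blue, and run from rank 133 (TFRC) to rank 9222 (ALAD) of 58293 entries.

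The relative width of the bounds was larger for the low members than for the high ones. The upper bound of ALAD was 44.1% above its value, and that of ALAS2 28.3%. PPOX, CPOX, UROS and FECH had bounds 24.1%, 22.5%, 21.2% and 14.9% away from their values. The bounds of SLC25A37, UROD and TFRC were narrow, at 7.50%, 6.70% and 6.39%. The widths bear on the order above, because the pairs with overlapping bounds are pairs of low members.

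The table gives no read counts, but its bounds hold a trace of them. If a bound is 2 standard errors of a count away, a width of 2 divided by the square root of n corresponds to n fragments. Of the 559 entries at 1 FPKM or more whose width, when rounded, corresponded to at most 3 fragments, 70.5% lay within 0.02 of a whole number. By the tolerance alone 4% would. Above 30 and up to 100 rounded fragments 4.01% did, so that single counts could not be read off there. On this scale the bounds of ALAD were as wide as the counting error of 20.5 fragments and those of ALAS2 as that of 50.1. The figure was 69.2 for PPOX, 78.9 for CPOX, 88.8 for UROS and 179.9 for FECH. It was 712 for SLC25A37, 891 for UROD and 979 for TFRC. These are widths expressed as fragments and not the number of reads of each gene.

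Among entries within 1.25-fold of its own FPKM, SLC25A37 had bounds narrower than most, since 4.98% of 883 entries were narrower still. UROD had narrower bounds than most of the 239 entries near it, with 17.2% below. PPOX was on the other side, with narrower bounds in 83.0% of 1551 entries and a median width of 18.3% among them. For the other members this share was between 40.5% and 65.4%.

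**Figure D3:**
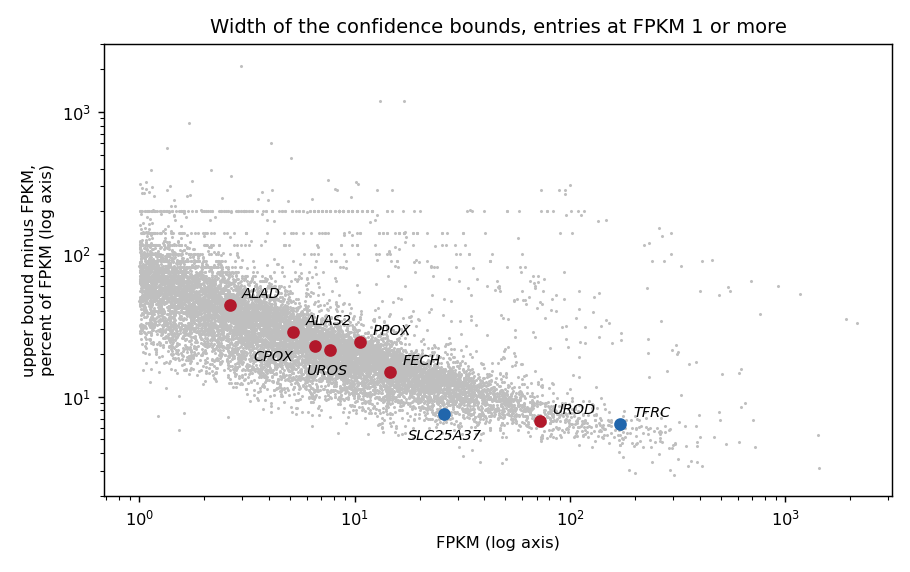
Distance from FPKM to the upper confidence bound, in percent of the FPKM, against FPKM, both on log axes, for the 12726 entries with an FPKM of at least 1 (grey). The members are labelled (enzymes in red, iron genes in blue), and their widths run from 44.1% for ALAD to 6.39% for TFRC. The horizontal rows of grey points at the top are widths of 1, 2, 3 and more whole fragments.

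Of the genes that work beside the members in heme synthesis, 9 of 9 were at 1 FPKM or more and 3 of 9 at 10 or more, with a median of 8.97 FPKM. ALAS1, the ubiquitous form of the synthase, was at 3.43 FPKM (2.53 to 4.33). ALAS2 was 1.50 times ALAS1, with bounds that overlapped (0.855 to 2.62). Overlap of the bounds does not show that the erythroid and the ubiquitous synthase were at equal levels.

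CLPX, a mitochondrial protein that activates ALAS, was at 28.5 FPKM (24.9 to 32.2). SLC25A38, which brings glycine into mitochondria, was at 7.09 (6.09 to 8.08) and the porphyrin carrier TMEM14C was at 25.3 (22.4 to 28.2). PGRMC1, a partner of FECH, was at 18.8 FPKM (17.0 to 20.6) and ABCB10, which stabilizes SLC25A37, at 8.62 (7.65 to 9.58). These genes lay within the range of the enzymes, but that range reached 72.3 FPKM only through UROD. The next enzyme, FECH, was at 14.6 FPKM with an upper bound of 16.8. The lower bounds of CLPX, TMEM14C and PGRMC1 were above that bound, while SLC25A38 and ABCB10 were below FECH.

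Among the other genes of iron uptake and transfer, 9 of 10 were at 1 FPKM or more and 5 of 10 at 10 or more, with a median of 11.5. TFR2, a homolog of TFRC that senses iron-loaded transferrin, was at 15.3 FPKM (13.0 to 17.5), and TFRC was 11.2 times as high (9.14 to 14.0). SLC11A2, which moves iron out of endosomes, was at 14.1 (11.5 to 16.8) and the ferrireductase STEAP3 at 3.85 (3.33 to 4.38). SLC25A28, the mitoferrin of other tissues, was at 2.62 FPKM (1.63 to 3.60), and SLC25A37 was 9.95 times as high (6.68 to 17.2). In both pairs the member was therefore the higher one beyond the bounds. TF, which encodes transferrin itself, was at 0.981 with a lower bound of 0.

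For iron storage, export and sensing, 8 of 10 genes were at 1 FPKM or more. FTH1, the ferritin heavy chain, was at 174.7 FPKM and did not differ from TFRC beyond the bounds, at a ratio of 1.02 (0.911 to 1.15). FTL, the light chain, was at 106, and TFRC was 1.61 times as high (1.43 to 1.82). IREB2 and ACO1, the iron regulatory proteins, were at 14.8 and 3.77. The exporter SLC40A1 was at 16.8 FPKM and the ferritin receptor NCOA4 at 22.2.

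In heme breakdown and transport, HMOX2, the constitutive heme oxygenase, was at 15.8 FPKM (13.5 to 18.2), while the inducible HMOX1 was listed at 0. BLVRB, a biliverdin reductase, was at 47.5 FPKM and BLVRA at 13.9. The heme exporter FLVCR1 was at 9.38 FPKM (7.22 to 11.5). In iron-sulfur cluster assembly, which shares its mitochondrial iron with FECH, 16 of 16 genes were at 1 FPKM or more with a median of 6.59. HSPA9, a mitochondrial chaperone, was at 169.7 FPKM, and the others were between 1.19 and 26.3. GLRX5, a cluster carrier needed for heme synthesis in red cell precursors, was at 10.5 FPKM (8.93 to 12.1).

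The erythroid character of the cells was checked on genes outside the pathway. At least 10 FPKM was reached by 7.37% of all entries and by 20.1% of those with a RefSeq protein. Of 10 globins, 4 were at 10 FPKM or more, with a median of 4.95. The fetal and embryonic globins HBG2, HBE1 and HBG1 were at 218, 132 and 109 FPKM, and HBB at 0.127 with a lower bound of 0. HBZ was at 12.0 FPKM, HBD at 3.41, HBQ1 at 0.450 with a lower bound of 0, and HBM was listed at 0. The values of HBG1 and HBG2, and of HBA1 (4.73) and HBA2 (5.16), are uncertain because each pair is almost identical in sequence and reads of low mapping quality were removed. All 5 of GATA1, TAL1, KLF1, NFE2 and the heme sensor BACH1 were between 14.3 and 29.7 FPKM. Of 5 red cell surface genes, 2 were at 10 FPKM or more, GYPC at 34.7 and RHAG at 34.3. GYPB was at 9.87, the erythropoietin receptor EPOR at 1.28 (0.807 to 1.75) and the anion exchanger SLC4A1 at 0.193 with a lower bound of 0. Of 11 markers of other cell types, 9 had a lower bound of 0, and the 2 exceptions were EPCAM at 27.9 and PTPRC at 14.5. A lower bound above 0 was found in 26.5% of all entries and in 56% of those with a RefSeq protein. HBG2 was 1.28 times TFRC (1.13 to 1.44), and HBE1 was 1.82 times UROD (1.60 to 2.07).

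Reads in sequence shared with another gene can be given to either. The study describes its RIP-seq libraries as stranded, but whether strand was used in the quantification is not given in the sources used here. Shared lengths below are of whole gene spans with introns, so the transcripts may share less. The spans below are those of the deposited table on GRCh38, with starts counted from 1. PPOX, at chr1:161166410-161178013 on the plus strand, shared 6659 bp with B4GALT3 on the other strand, which was at 6.49 FPKM (5.08 to 7.90). CPOX, at chr3:98521132-98593723 on the minus strand, had a span of 72592 bp, against 14203 bp in GENCODE 44. It shared 1935 bp with CLDND1 on the same strand, at 11.2 FPKM (8.97 to 13.4), and 1252 bp with GPR15 on the other strand, listed at 0. The PPOX and CPOX levels are thus the ones whose span was shared with a gene of similar FPKM.

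ALAS2, at chrX:55009055-55031064 on the minus strand, shared 3 bp with APEX2 (1.73 FPKM). UROS, at chr10:125784980-125823248 on the minus strand, overlapped the microRNA gene MIR4484 (listed at 0) and was 297 bp from BCCIP (50.7 FPKM). TFRC, at chr3:196027183-196082189 on the minus strand, overlapped entries that were listed at 0. UROD at chr1:45012147-45015575 on the plus strand, ALAD at chr9:113386317-113401333 and FECH at chr18:57548283-57586772 on the minus strand, and SLC25A37 at chr8:23528805-23575463 on the plus strand overlapped no other entry. The entries that flank UROD, HECTD3 at a distance of 817 bp and ZSWIM5 at 823 bp, were at 9.67 and 0.0524 FPKM, so the high level of UROD was not shared by its neighbours.

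The gene models of the members differ mainly in their untranslated ends. In the canonical GENCODE 44 transcripts, UROD had 10 exons, 1193 bases and a 3′ UTR of 77 bases, and PPOX had 13 exons, 1733 bases and a 3′ UTR of 44 bases. FECH, by contrast, had 11 exons in 7689 bases, of which 6335 were 3′ UTR, and SLC25A37 had 4 exons in 4672 bases with 3608 of 3′ UTR. Coding lengths ran from 798 bases for UROS to 2283 for TFRC. The FPKM were computed on GENCODE 26, so these lengths are given as description.

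Promoters of RefSeq (GRCh38.p14), from 250 bases before to 50 bases after the start, were matched for 7 of the 9 members; UROS and SLC25A37 had no entry. The GATA motif, spelled AGATAA or TGATAA on either strand, was present in ALAS2 and CPOX, 2 of 7 members, and in 16.6% of 27305 promoters. In ALAS2 it lay 127 bases before the start, and in CPOX 207 and 125 bases before it. The stretches that hold these matches are shown because the erythroid factor GATA1, at 15.3 FPKM in this library, binds this motif. They are limited to bases before the deposited gene span, and capitals mark the motif, here read on the opposite strand.

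ALAS2, minus strand of chrX:55031065-55031227: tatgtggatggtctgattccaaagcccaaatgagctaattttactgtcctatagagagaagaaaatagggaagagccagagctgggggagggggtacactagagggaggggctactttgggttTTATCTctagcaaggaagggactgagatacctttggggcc
CPOX, minus strand of chr3:98593724-98593861: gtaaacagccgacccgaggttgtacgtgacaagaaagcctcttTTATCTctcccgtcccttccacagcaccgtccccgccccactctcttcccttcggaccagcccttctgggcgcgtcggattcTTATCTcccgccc

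ALAS2 and CPOX, the members with the motif, were at 5.16 and 6.52 FPKM, and TFRC and UROD, the highest members, had none in the window. CACCC was found in 6 of 7 promoters (58.9% of all), CCAAT in 3 of 7 (35.7%) and TATAAA in 1 of 7 (12.0%), that of TFRC. The ALAS2 window held 3 CpG dinucleotides, the other members 13 to 37, and the median of all promoters was 14. No match says only that these letters are not in this window, and binding was not measured.

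None of the 900 deposited EZH2 RIP-seq fragments lay in a member gene, whether at least 50% of a fragment or any base was required, and none lay within 10 kb of one. The list holds fewer fragments than the study identified, so the count of 0 covers the listed fragments and not all of those. With 9 genes, a count of 0 says little about a share. The usual upper limit, 3 divided by the number of genes, would be 33.3% for random draws, and these genes were chosen by name. The background was low, since 2.44% of the 12726 entries with an FPKM of at least 1 held a fragment. It was 0.847% among those with a span up to 72592 bp, the longest among the members, and 8.35% among longer ones. The nearest fragment was 632 kb from UROD, 696 kb from UROS, 827 kb from TFRC and 1275 kb from CPOX, and for the other members the distance was between 3525 and 20345 kb. The nuclear, cytoplasmic and polyA fractions therefore gave no value for a member.

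Among the related lists, fragments lay in LYRM4, of iron-sulfur cluster assembly, with 3, in GYPC and RHAG with 1 each, and in the spans of HBE1 and HBG2, which shared the same 4. These 4 lay at chr11:5335607-5465158, inside deposited spans of 237 and 393 kb, and began 65.7 kb before the start of the canonical HBE1 transcript and 80.8 kb before that of HBG2. They are in the region upstream of the β-globin cluster from which the study describes the non-coding RNA LEVER, and none overlapped the canonical HBE1 or HBG2 transcript. The LYRM4 fragments had 35, 42 and 48 reads in the nuclear library and 0, 5 and 5 in the cytoplasmic one. The libraries are given unscaled, so these counts alone do not show nuclear enrichment. On the 900 fragments the cytoplasmic library had 7929 reads, the nuclear one 105661 and the nuclear polyA− one 106051. These sums are not library totals.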

How the data were processed

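The authors trimmed reads with Trim Galore, aligned them with STAR to GRCh38 with GENCODE 26, discarded duplicates (SAMtools) and alignments below a mapping quality of 20, and deposited FPKM per gene with confidence bounds from Cuffdiff, for 1 input library. Tool versions, the confidence level and the depth are not given in the sources used here. The label calls the RNA total RNA, while the immunoprecipitation used nuclear lysates, and whether the input came from nuclei is not stated. For 4 fractions the authors deposited featureCounts counts on 900 fragments, without normalization. The other 28 of 33 samples were not analysed here.

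Members were matched by symbol, ranked by FPKM and compared by whether bounds overlapped. Ratio ranges divide opposite bounds. Starts in the deposited spans were counted from 0 (39367 of 44813 entries with the same end in GENCODE 44) and are printed from 1. Fragments were placed in a gene whose span held at least 50% of their length. The hairpin search was tested on hairpins planted in simulated sequence of A and T only. The promoter motif search was not tested in this way. The members and lists were chosen with earlier results of these data known, and the text names all members, genes of the lists (2 of which are not reported here), and entries that overlap or flank a member. A pseudocount of 1 was used for log2 values. Alternatives comprised another pseudocount, other sets of entries and thresholds, standard errors in place of bounds, and wider gene spans. Python 3.11.15, numpy 2.4.6, pandas 2.3.3 and matplotlib 3.10.9 were used.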

Additional observations from a re-analysis of the deposited data

How the results depend on the processing

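The log2(FPKM + 1) of the median member was 3.44 above the median of all entries. The difference was 5.99 with a pseudocount of 0.1, 3.04 over entries above 0, 2.51 over entries with a RefSeq protein and 0.774 over entries with an FPKM of at least 1, so its direction was kept and its size depended on the entries taken. The number of members at or above the threshold was 5 at 10 FPKM, 9 at 1 FPKM, 3 at 20 FPKM and 4 where the lower bound had to reach 10. By the combined standard error, with the deposited bounds taken as 95% bounds, 33 of the 36 pairs were apart, against 30 by the bounds. The pairs then not apart were PPOX with UROS, UROS with CPOX, and CPOX with ALAS2. The ratio of the highest to the lowest member was 65.2, 47.5 on FPKM + 1 and 27.6 among the 7 enzymes. The count of fragments in member genes was 0 for each overlap and each span, the last of which, any base with the span extended by 10 kb, was chosen after seeing the data. Ratios between the fractions could not be given for the members because no fragment lay in them. No paired analysis was possible because each value comes from 1 library. With no replicate and no known depth, differences between cultures were not measured. By the overlap of bounds, the order was least certain for UROS and ALAS2, each of which overlapped 3 other members, while ALAD overlapped 1.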
